A study of Homo sapiens with 18 samples.

Results

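The repeat copies described here lie inside 9 genes that fibroblasts use to build the extracellular matrix. They were taken by position alone, as every row of both deposited count tables that falls in 8 windows of the hg19 genome, whatever the repeat's name. The windows are FN1 (chr2:216225160-216300900), COL1A1 (chr17:48261450-48279000), COL1A2 (chr7:94023870-94060550), COL3A1 (chr2:189839040-189877480), COL6A3 (chr2:238232640-238323020), the pair COL4A1 and COL4A2 (chr13:110801310-111165380), FBN1 (chr15:48700500-48937990) and THBS1 (chr15:39873280-39889670). The 5-FU table listed 684 such copies of 2404193 in all. There were 638 of 1996647 in the table of the Nutlin experiment, all of them also among the 684, and none lay only partly inside a window. All samples were cultures of the established lung fibroblast line IMR90, which is human, and the assay was stranded sequencing of total RNA. The 18 samples formed 9 groups of 2. Untreated cells received fresh medium 12 h before extraction. One treated group had 6 h of 5 µM Nutlin. The other treated groups had 375 µM 5-fluorouracil (5-FU), lasting 6, 12 or 24 h. Each of these 4 groups had its own DMSO group of the same duration. Nothing in the labels says that the samples of a group came from separate cultures, so the p-values measure only the spread between these samples, which may be technical.

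The extracellular matrix is the network of secreted proteins around connective tissue cells. Fibronectin (FN1) and thrombospondin-1 (THBS1) are adhesive glycoproteins that bind cells and other matrix proteins. The fibrillar collagens type I (COL1A1 and COL1A2) and type III (COL3A1) give lung tissue its tensile strength, and COL6A3 encodes a chain of the beaded-filament collagen VI. COL4A1 and COL4A2 encode chains of basement membrane collagen IV and lie head to head on opposite strands, while FBN1 encodes fibrillin-1, the core of microfibrils. Nutlin is an MDM2 antagonist that stabilises p53, and 5-FU is a pyrimidine analogue that disturbs RNA and DNA metabolism. A repeat inside a gene is copied along with the gene, so counts over such a copy cannot be told apart from counts of the host transcript. The windows other than FN1, COL1A1 and COL6A3 also overlap other annotated genes, among them FSIP1 in the THBS1 window, and whether the authors counted by strand is not given in the sources used here. Alu and MIR copies are short interspersed elements, L1, L2, L3 and HAL1 copies are long interspersed elements, THE1D and the MLT names are remnants of LTR retrotransposons, and the Tigger and Charlie names are DNA transposons.

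The summed levels of the FN1 copies and of the COL6A3 copies moved in opposite directions under Nutlin. In COL6A3 the rise lay in a stretch between 22.566 and 32.276 kb from the window's gene-start end, described below. The bases upstream of both genes are shown as a description only. They come from RefSeq on GRCh38.p14 and cover the 250 bases before the annotated start, read 5′ to 3′ on the minus strand, at chr2:215436069-215436318 for FN1 and chr2:237414165-237414414 for COL6A3. These positions are on another build than the windows. Capitals mark matches on either strand to the cAMP response element TGACGTCA, the CCAAT box CCAAT and the TATA box TATAA.
FN1: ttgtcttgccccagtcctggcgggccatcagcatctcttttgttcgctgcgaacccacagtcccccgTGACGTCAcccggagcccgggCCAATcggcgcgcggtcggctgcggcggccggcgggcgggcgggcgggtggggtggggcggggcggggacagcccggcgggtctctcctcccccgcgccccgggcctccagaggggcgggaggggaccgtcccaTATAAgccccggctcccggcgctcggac
COL6A3: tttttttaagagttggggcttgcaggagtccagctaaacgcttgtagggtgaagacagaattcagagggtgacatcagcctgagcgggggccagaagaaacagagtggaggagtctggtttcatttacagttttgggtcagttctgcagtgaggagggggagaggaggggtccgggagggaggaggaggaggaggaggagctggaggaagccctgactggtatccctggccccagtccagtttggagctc

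The FN1 stretch holds the cAMP response element 183 bases, the CCAAT box 162 bases and the TATA box 28 bases before the start. The COL6A3 stretch holds none of them. A pair of p53 cores (CATG, any 6 bases, CATG) was searched for as well and is in neither. Among 35116 RefSeq promoters of the same length, 1.65% hold the cAMP response element, 32.0% the CCAAT box, 18.9% the TATA box and 0.296% the p53 pair. The table holds 6 of the 9 genes, without COL1A1, COL1A2 and COL3A1. A match describes the letters only, and none of the motifs was tied to a measurement here.

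The deposited counts summed to between 2412334 and 6290320 per library of the 5-FU table and, for Nutlin, between 9109885 and 11880265, of which the copies of the 8 windows held 0.112% to 0.194% and 0.0303% to 0.0431%. Structural RNA copies, such as those of ribosomal and transfer RNA, are part of these counts. Without them the libraries held 1618055 to 4164168 counts in the 5-FU table and 1787724 to 2474410 for Nutlin. Levels are given below as CPM, that is, counts relative to the TMM-scaled library size, and they are not compared between the tables, which were not made in the same way. The 2 untreated columns of the Nutlin table hold identical values and were used as 1 sample. After the filter on low counts, 91 of the 638 copies were tested for Nutlin and 234 of the 684 for 5-FU, that is 14.3% and 34.2%, against 1.80% and 2.65% of all copies. The DMSO 12 h libraries had the lowest depth, 2412334 and 2540089 counts. In COL4A1/COL4A2, COL1A1, COL1A2, FN1, FBN1 and THBS1 their summed levels did not overlap those of either other DMSO group. In COL1A2 they lay between those groups. The main 12 h results are therefore also given against the DMSO libraries of 6 h and 24 h.

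The windows carried more counts per kb of repeat than their surroundings. Over all libraries of the 5-FU table the median was 9.99 CPM per kb of repeat in the windows and 1.504 in flanks of the same length on each side, and for Nutlin it was 2.29 and 0.534. The contrast was wide in COL1A2, with medians of 56.7 against 0.3198 CPM per kb in the 5-FU table, and in COL6A3, with 21.8 against 0.316. It was narrow in FBN1, at 3.94 against 3.09 in the 5-FU table, while for Nutlin the FBN1 window (1.05) lay below its flanks (1.25). COL3A1 was low, at 4.47 CPM per kb in the 5-FU table and 0.252 for Nutlin, where its flanks had 0.223. The tables list no genes, so the identity of the cells could not be checked on fibroblast marker transcripts themselves.

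In each window a few copies held much of the signal. The copy with the highest mean CPM was the same in both tables for all 8 windows. In the 5-FU table an L1MC4 copy held 50.03% of the COL1A1 counts, a MIR copy 35.7% of those of THBS1, an L3 copy 24.2% of those of FBN1 and an L1MD2 copy 23.8% of those of COL3A1. An L2a copy held 18.3% of the COL6A3 counts, an AmnSINE1 copy of 52 bases 17.9% of those of COL4A1/COL4A2, an AluSx copy 17.7% of those of COL1A2 and a HAL1 copy 13.8% of those of FN1. By repeat class, the 157 Alu copies held 27.7% of the counts of all windows, the 121 L2 and other LINE copies 20.3%, the 143 MIR copies 15.6% and the 96 L1 copies 14.6%.

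Under Nutlin, the summed level of the COL6A3 copies was higher than under DMSO. The DMSO libraries had 103 and 104 CPM, the Nutlin libraries 242 and 204 CPM, and the untreated library 80.1 CPM. Both Nutlin libraries thus lay above every other library, at a log2 ratio of 1.102 ± 0.17 (SD, n = 2 per group). In such bulk samples a change in the number of cells of a kind and a change in RNA per cell cannot be told apart. With edgeR's quasi-likelihood test and Benjamini-Hochberg adjustment over all 35959 copies tested, 14 of the 91 tested copies of the windows passed an adjusted p of 0.05, against 4.87% of all copies tested. Of these, 11 were higher, all of them in COL6A3, and 3 were lower, all of them in FN1, against 2.94% and 1.94% of all copies tested. With library size alone as the scaling 11 were higher and 12 lower (6.13% of all copies passed, 2.4% higher and 3.73% lower), and the median log2 fold change of all copies tested moved from -0.02 to -0.19.

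The 11 COL6A3 copies lay within 9.711 kb (chr2:238290744-238300454), between 22.566 and 32.276 kb from the window's gene-start end. The most abundant, an L2a copy (chr2:238293545-238293955), had 20.8 and 21.1 CPM under DMSO and 57.3 and 40.1 CPM under Nutlin, a log2 fold change of 1.22 ± 0.18 (SE, adjusted p = 0.000255). Another L2a copy (chr2:238293055-238293442) had 8.29 and 8.81 CPM under DMSO and 28.1 and 19.2 CPM under Nutlin, a log2 fold change of 1.47 ± 0.22 (adjusted p = 0.000206). The AluSq2 copy nearest the gene start (chr2:238300148-238300454) went from 14.9 and 18.7 CPM to 42.0 and 35.1 CPM, a log2 fold change of 1.201 ± 0.18 (adjusted p = 0.000277). In each of the 3 copies both Nutlin libraries lay above both DMSO libraries and the untreated library.

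The other called copies of this stretch belonged to several repeat families. An AluSx1 copy (chr2:238290744-238291043) rose from 5.32 and 4.46 CPM to 13.8 and 14.9 CPM, and a MamRep434 copy (chr2:238294770-238294951) from 5.64 and 3.37 CPM to 13.8 and 12.6 CPM. The log2 fold change was 1.55 ± 0.24 in the AluSx1 copy (adjusted p = 0.000303) and 1.55 ± 0.26 in the MamRep434 copy (adjusted p = 0.00103). The DNA transposon copy Charlie15b (chr2:238295071-238295225) rose by a log2 fold change of 1.26 ± 0.22 (adjusted p = 0.00147), a MIR3 copy (chr2:238294101-238294219) by 1.35 ± 0.27 (adjusted p = 0.00439) and a MIR copy (chr2:238292657-238292727) by 1.43 ± 0.32 (adjusted p = 0.00999). Without Nutlin replicate 2 the MIR copy no longer passed (adjusted p = 0.0737 by the same test). The remaining 3 called copies were a Tigger15a copy at 1.76 ± 0.39 and AluSx copies at 1.04 ± 0.25 and 1.42 ± 0.34, with adjusted p between 0.0103 and 0.0175. None of these 3 passed without Nutlin replicate 1 (adjusted p between 0.107 and 0.281). Without DMSO replicate 1 the AluSx copy at 1.04 did not pass (adjusted p = 0.0712), nor did the other AluSx copy by DESeq2 (adjusted p = 0.0598). The twelfth copy of the stretch, an L3 copy of 57 bases, was at 0.73 ± 0.33 and did not pass (adjusted p = 0.258). It and the 3 copies before it were named after their values were seen.

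Outside the stretch the summed levels of the COL6A3 copies overlapped between Nutlin and DMSO. The limits of the stretch were set by the calls, so these sums are a description with no test. Inside it the 12 copies summed to 78.9 and 83.4 CPM under DMSO and to 219 and 178 CPM under Nutlin. The other 60 copies summed to 24.5 and 20.9 CPM under DMSO and to 22.2 and 25.7 CPM under Nutlin, and the groups overlapped. None of the 10 tested copies outside passed, all of which lie between the stretch and the gene end, while none of the 19 copies toward the gene start had enough counts to be tested. Their median log2 fold change was 0.08, against 1.38 inside. Counts per kb of repeat were also higher inside, at 34.6 CPM per kb under DMSO against 1.65 outside. The position of a copy and its log2 fold change had a Spearman rho of -0.72 over the 22 tested copies, which share their libraries and their host gene. All tested copies inside the stretch lie nearer the gene start than those outside, so this rho repeats the contrast between inside and outside.

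**Figure D1:**
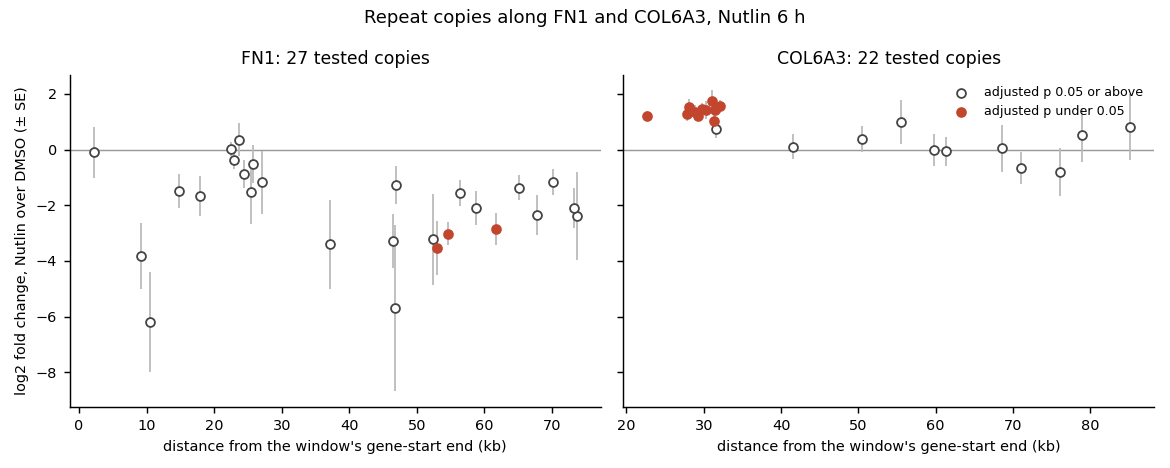
Log2 fold change (Nutlin 6 h over DMSO, vertical axis, bars are ± SE) of each tested repeat copy in FN1 (27 copies, left) and COL6A3 (22 copies, right) against its distance in kb from the window's gene-start end. Filled points have an adjusted p under 0.05: the 11 filled points in COL6A3 lie above 0 between 22.7 and 32.1 kb, and the 3 filled points in FN1 lie below 0 between 53.02 and 61.7 kb.

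FN1 went the other way. Its copies summed to 66.8 and 57.6 CPM under DMSO, 75.6 CPM in the untreated library, and 29.6 and 25.5 CPM under Nutlin, a log2 ratio of -1.17 ± 0.21 (SD, n = 2 per group). Both Nutlin libraries lay below all others. Of the 27 tested copies 25 had a lower fitted level under Nutlin, and in 22 both Nutlin libraries lay below both DMSO libraries, against 23.8% of all copies tested. The median log2 fold change of the 27 copies was -1.65, or -1.52 with 2 copies at 0 in both Nutlin libraries set at their bound. For Nutlin a copy was tested if 1 library, such as the untreated one, had enough counts, so copies low under the drug could enter. The 91 tested copies of all windows had a median of -0.33. With at least 10 counts in every library 29 were tested, with a median of 0.33 and 0 lower calls. A filter by the 2 groups of 2 tested 48, with a median of -0.02 and 4 lower calls. The sums use all copies, tested or not.

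The 3 FN1 copies that passed were short interspersed and LTR elements. An AluSg copy (chr2:216246196-216246481) had 6.17 and 5.11 CPM under DMSO and 0.862 and 0.474 CPM under Nutlin, and fell by 3.02 ± 0.41 on the log2 scale (adjusted p = 8.84e-05). A THE1D copy (chr2:216239073-216239383) had 2.02 and 2.72 CPM under DMSO and 0.383 and 0.237 CPM under Nutlin, with a log2 fold change of -2.86 ± 0.59 (adjusted p = 0.00554). An AluSz copy (chr2:216247725-216248030) had 11 and 14 counts under DMSO and 2 and 0 under Nutlin (adjusted p = 0.0415). Its call was lost without replicate 2 of either group, with only the compared libraries in the fit and with no filter (adjusted p between 0.0785 and 0.182). DESeq2 called 2 copies of the windows lower, the AluSg and THE1D copies. In all 3 FN1 copies the groups did not overlap, and the untreated library lay with DMSO.

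The most abundant FN1 copy did not pass. The HAL1 copy (chr2:216278259-216278690) had 8.29 and 5.98 CPM under DMSO and 7.47 and 7.12 CPM under Nutlin, a log2 fold change of 0.03 ± 0.25 (adjusted p = 0.969). It lies 22.4 kb from the gene-start end of the window, and its neighbour AluSx (chr2:216277850-216278141) was at -0.37 ± 0.32 (adjusted p = 0.612). Without the HAL1 copy the FN1 sum fell by 1.44 on the log2 scale. The log2 fold change and the position of a copy in FN1 had a Spearman rho of -0.21 over the 27 tested copies.

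THBS1, with 4 copies in the whole window, was lower by a wider margin but on few counts. The 4 copies summed to 5.74 and 4.35 CPM under DMSO, 5.11 CPM in the untreated library, and 1.24 and 1.30 CPM under Nutlin, a log2 ratio of -1.99 ± 0.29 (SD, n = 2 per group). All 4 copies had both Nutlin libraries below both DMSO libraries, against 23.8% of all copies tested, and none passed the test. The most abundant, a MIR copy (chr15:39879792-39880026), had 16 and 19 counts under DMSO and 5 and 5 under Nutlin, with a log2 fold change of -1.80 ± 0.56 (adjusted p = 0.0743). The L1MA9 copy beside it (chr15:39879196-39879434) was at -1.61 ± 0.69 (adjusted p = 0.231).

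The collagen I genes showed no separation of the groups. COL1A1 copies summed to 12.4 and 9.90 CPM under DMSO and to 8.04 and 9.96 CPM under Nutlin. COL1A2 copies summed to 15.9 and 9.36 CPM under DMSO and to 15.9 and 13.2 CPM under Nutlin. The leading copies, L1MC4 in COL1A1 (chr17:48275930-48276518) and AluSx in COL1A2 (chr7:94052895-94053206), were at log2 fold changes of -0.33 ± 0.34 (adjusted p = 0.684) and 0.33 ± 0.40 (adjusted p = 0.737). Both sums were higher in the untreated library, at 16.0 and 27.3 CPM. COL3A1 had too few counts to compare: its leading L1MD2 copy (chr2:189864980-189865530) had 1 and 4 counts under DMSO, 0 and 0 under Nutlin and 13 in the untreated library.

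COL4A1/COL4A2 and FBN1 were lower under Nutlin in sum, though their leading copies were not. The COL4A1/COL4A2 copies summed to 77.4 and 67.5 CPM under DMSO and 49.5 and 53.7 CPM under Nutlin (log2 ratio -0.49 ± 0.16, SD, n = 2 per group). The FBN1 copies summed to 50.5 and 52.0 CPM under DMSO and 37.7 and 33.2 CPM under Nutlin (log2 ratio -0.53 ± 0.13). In neither window did a single copy pass. The AmnSINE1 copy of COL4A1/COL4A2 (chr13:111121557-111121608) had 19.5 and 19.8 CPM under DMSO and 19.7 and 23.8 CPM under Nutlin. The L3 copy of FBN1 (chr15:48701347-48701606) had 13.4 and 16.2 CPM under DMSO and 18.6 and 15.8 CPM under Nutlin. Without these leading copies the sums of the other copies were lower by log2 ratios of -0.82 and -0.99. With the FBN1 window cut into 3 equal parts, the mean sum went from 13.02 to 4.81 CPM in the part nearest the gene start and from 29.5 to 25.5 CPM in that at the gene end.

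**Figure D2:**
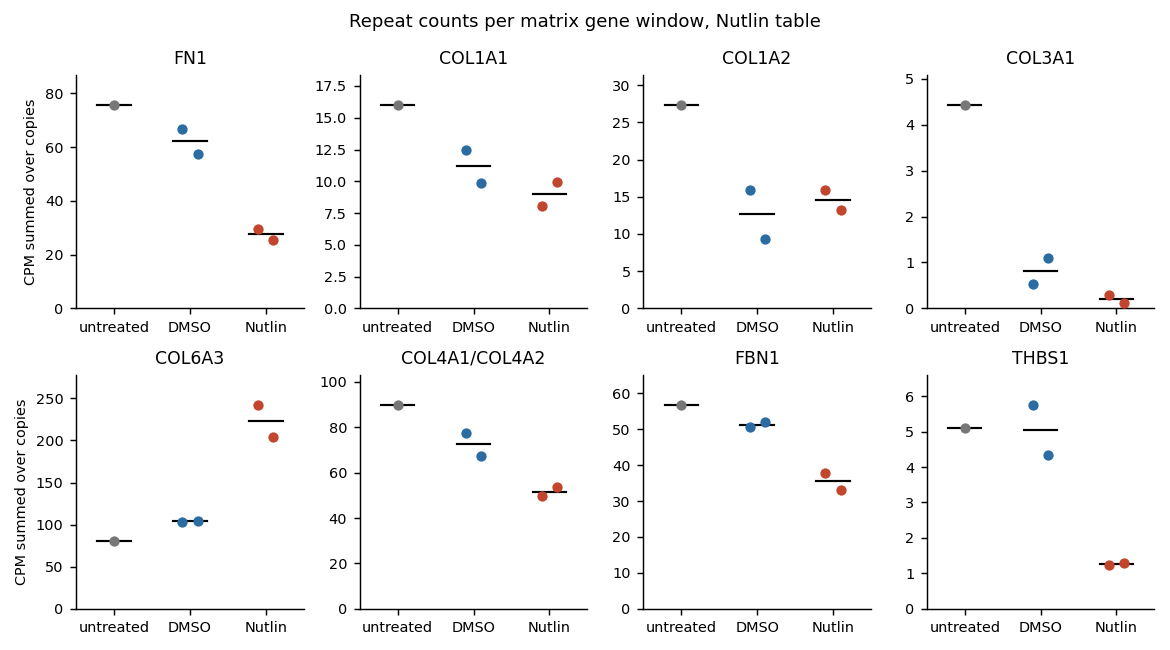
Summed level of all repeat copies in each of the 8 windows (CPM, vertical axis starting at 0) in each library of the Nutlin table, with the untreated library in grey, DMSO in blue and Nutlin 6 h in red. Lines mark the group means: the 2 Nutlin points of COL6A3 (242 and 204 CPM) lie above all others, and those of FN1 (29.6 and 25.5 CPM) below all others.

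At 6 h of 5-FU no copy of the windows passed the test. By edgeR's quasi-likelihood test 0 of 234 tested copies were called, against 0.121% of all 63602 copies tested, and DESeq2 also called 0. At an unadjusted p under 0.05 there were 18, or 7.69%, against 8.25% of all copies tested. The median log2 fold change was -0.07 for the windows and 0.12 for all copies tested. COL1A1 copies summed to 44.8 and 50.4 CPM under DMSO and 67.1 and 66.9 CPM under 5-FU, and COL6A3 copies to 366 and 340 CPM under DMSO and 446 and 428 CPM under 5-FU. In both windows the 5-FU libraries lay above the DMSO libraries, at log2 ratios of 0.49 ± 0.12 and 0.31 ± 0.09 (SD, n = 2 per group). FN1 lay slightly below, at 401 and 420 CPM under DMSO and 365 and 391 CPM under 5-FU.

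The COL6A3 stretch that rose under Nutlin was also the part of that gene that was higher under 5-FU at 6 h. Its limits come from the Nutlin table alone, and the 5-FU table has other treated and DMSO libraries. Inside the stretch the 12 copies summed to 272 and 243 CPM under DMSO 6 h and to 360 and 345 CPM under 5-FU 6 h. The other 60 copies summed to 94.2 and 96.8 CPM under DMSO and to 86.1 and 82.9 CPM under 5-FU, so that inside and outside went in opposite directions, with log2 ratios of 0.45 and -0.18. At 24 h the sums inside were 237 and 254 CPM under DMSO and 235 and 246 CPM under 5-FU, with overlapping groups. Outside they were 111 and 106 CPM under DMSO and 83.1 and 76.0 CPM under 5-FU, without overlap, at a log2 ratio of -0.45. None of these differences was tested. At 12 h the sums inside were 437 and 368 CPM under 5-FU, 224 and 299 CPM under DMSO 12 h and 237 to 272 CPM in the 4 other DMSO libraries, none of which reached the 5-FU libraries. Outside they were 121 and 109 CPM under 5-FU and 57.9 and 55.9 CPM under DMSO 12 h, but 94.2 to 111 CPM in the other DMSO libraries, so the groups overlapped there. The log2 ratios were 0.62 inside and 1.02 outside against DMSO 12 h, and 0.68 and 0.18 against DMSO 6 h and 24 h.

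At 12 h of 5-FU 23 of the 234 tested copies passed by edgeR's quasi-likelihood test, 15 higher and 8 lower. Leaving out any one of the 4 libraries compared left 5 to 9 calls, and the AluY, L1MA9 and L1MB7 copies described below passed without each of them. Of all copies tested 11.2% passed, 8.17% higher and 3.0% lower, so the share among the windows (9.83%) was near the background. With library size alone as the scaling, 4 were higher and 15 lower (10.6% of all copies passed, 3.23% higher and 7.39% lower), and against the DMSO libraries of 6 h and 24 h, 4 were higher and 22 lower (14.4% of all copies passed, 8.50% higher and 5.89% lower). The scaling also moved the median log2 fold change of all copies tested, from 0.19 to -0.09 with RLE size factors and to -0.36 with library size alone. Higher calls against DMSO 12 h were in COL4A1/COL4A2 (7 copies), COL6A3 (4), FN1 (3) and COL1A1 (1), and lower calls in FBN1 (5), FN1, COL1A2 and THBS1 (1 each).

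COL6A3 was higher at 12 h against both sets. Its copies summed to 558 and 477 CPM under 5-FU, 282 and 355 CPM under DMSO 12 h, and 340 to 366 CPM in the 4 DMSO libraries of 6 h and 24 h. No DMSO library reached the lower 5-FU library on this scale. With library size alone as the scaling the sums overlapped, at 482 and 408 CPM under 5-FU and 371 and 437 CPM under DMSO 12 h, and the log2 ratio went from 0.70 to 0.14, or to 0.42 with RLE size factors. The leading L2a copy (chr2:238293545-238293955) had 113 and 94.6 CPM under 5-FU and 48.4 and 60.4 CPM under DMSO 12 h, with a log2 fold change of 0.93 ± 0.21 (adjusted p = 0.00714), and 0.67 (adjusted p = 0.0151) against DMSO 6 h and 24 h. The AluSq2 copy (chr2:238300148-238300454) had 94.3 and 82.6 CPM under 5-FU and 43.7 and 57.8 CPM under DMSO 12 h, with log2 fold changes of 0.80 ± 0.21 (adjusted p = 0.0177) and 0.89 (adjusted p = 0.00186) against the respective controls. The AluSq2 copy was not called against DMSO 12 h with RLE size factors, library size alone, no filter or only the compared libraries, nor without either 5-FU library or DMSO replicate 1 (adjusted p between 0.0522 and 0.423). The L2a copy was not called with library size alone (log2 fold change 0.37, adjusted p = 0.198), without DMSO 12 h replicate 1 (0.78, adjusted p = 0.117) or without 5-FU 12 h replicate 1 (0.69, adjusted p = 0.0889). A MIR3 copy near the gene start (chr2:238321086-238321217) had 0 and 0 counts under DMSO 12 h and 20 and 3 under 5-FU, at least 3.55-fold higher with 3 counts per library as the floor (adjusted p = 0.0158). The call was lost without either DMSO library or 5-FU replicate 1 (adjusted p between 0.0977 and 0.227). Against DMSO 6 h and 24 h its log2 fold change was 0.82 (adjusted p = 0.452).

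FBN1 was lower at 12 h against both sets. Its copies summed to 137 and 143 CPM under 5-FU, 323 and 284 CPM under DMSO 12 h, and 192 to 263 CPM in the DMSO libraries of 6 h and 24 h. Of the 45 tested copies 38 had a lower fitted level than DMSO 12 h, with a median log2 fold change of -1.22, or -1.20 with 2 copies at their bound. An L1MB7 copy (chr15:48860283-48862186) had 1.18 and 0.573 CPM under 5-FU and 10.7 and 7.99 CPM under DMSO 12 h, with a log2 fold change of -3.38 ± 0.66 (adjusted p = 0.00214), and -1.86 (adjusted p = 0.0546) against DMSO 6 h and 24 h. An LTR78 copy (chr15:48880786-48881443) had 2 and 0 counts under 5-FU and 17 and 8 under DMSO 12 h (log2 fold change -3.64 ± 0.96, adjusted p = 0.0165), and passed against the other controls as well (-3.04, adjusted p = 0.0283). It was not called without DMSO 12 h replicate 1 (adjusted p = 0.152) or 5-FU 12 h replicate 2 (adjusted p = 0.131). An L3 copy at the gene end (chr15:48701186-48701281) passed against DMSO 12 h only (log2 fold change -1.53 ± 0.32, adjusted p = 0.00318, and -0.35, adjusted p = 0.420, against the others). The leading L3 copy beside it (chr15:48701347-48701606) did not pass and changed sign between the 2 sets of controls (-0.59 and 0.23).

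THBS1 copies summed to 30.4 and 39.3 CPM under 5-FU 12 h, below the 6 DMSO libraries of the table, which had 44.4 to 67.4 CPM. The L1MA9 copy (chr15:39879196-39879434) had 6.78 and 9.46 CPM under 5-FU and 20.8 and 31.6 CPM under DMSO 12 h, with a log2 fold change of -1.68 ± 0.32 (adjusted p = 0.00172). Against DMSO 6 h and 24 h it was at -0.76 (adjusted p = 0.0795).

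In FN1 and COL4A1/COL4A2 the direction at 12 h differed between the sets of controls, and in FN1 the sum was also lower than DMSO 12 h with library size alone (log2 ratio -0.35). COL1A1 copies summed to 54.8 and 55.6 CPM under 5-FU 12 h, above the 34.6 and 24.3 CPM under DMSO 12 h. In the other DMSO libraries they summed to 44.8 to 82.6 CPM, so the groups overlapped there. COL4A1/COL4A2 copies summed to 337 and 372 CPM under 5-FU 12 h and 210 and 178 CPM under DMSO 12 h, but to 396 to 459 CPM in the DMSO libraries of 6 h and 24 h. FN1 copies summed to 322 and 337 CPM under 5-FU 12 h, 299 and 265 CPM under DMSO 12 h, and 401 to 554 CPM in the other DMSO libraries. In FN1 a MIRc copy (chr2:216263746-216263835) went from 3.08 ± 0.72 (adjusted p = 0.00804) against DMSO 12 h to -0.12 (adjusted p = 0.871) against the others on the log2 scale, and an AluSz copy (chr2:216247725-216248030) from 1.92 ± 0.51 (adjusted p = 0.0165) to 0.07 (adjusted p = 0.922). The L1MC4 copy of COL1A1 (chr17:48275930-48276518) went from 0.94 ± 0.28 (adjusted p = 0.0328) to -0.21 (adjusted p = 0.567), and an L1PB2 copy of COL4A1/COL4A2 (chr13:110865184-110865622) from 1.79 ± 0.41 (adjusted p = 0.00684) to 0.07 (adjusted p = 0.904). Of the 22 copies called lower against DMSO 6 h and 24 h, 11 were in FN1, 8 in COL4A1/COL4A2 and 3 in FBN1. Against DMSO 12 h the median of COL4A1/COL4A2 was 1.01, or 0.87 with 5 copies at their bound.

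**Figure D3:**
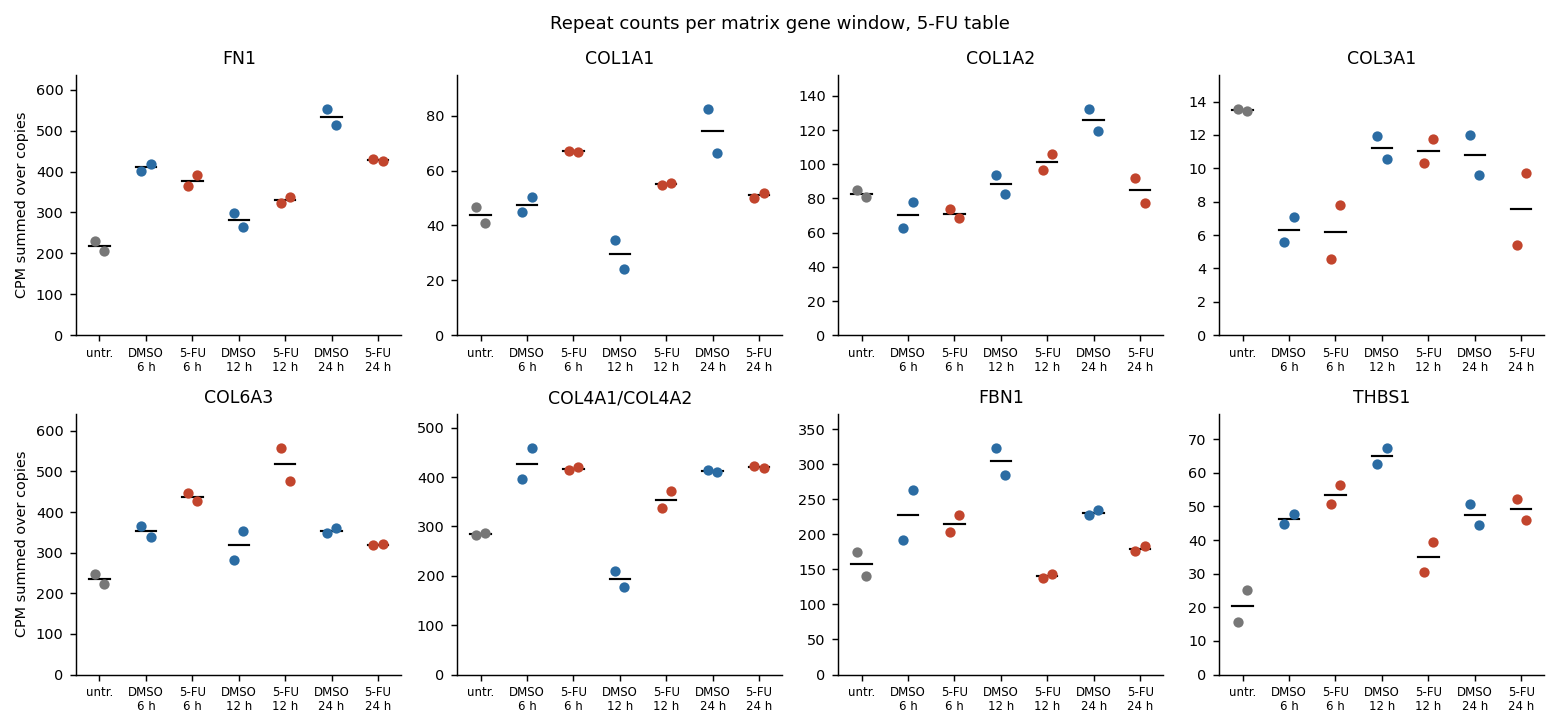
Summed level of all repeat copies in each of the 8 windows (CPM, vertical axis starting at 0) in each of the 14 libraries of the 5-FU table, with untreated in grey, DMSO in blue and 5-FU in red, and group means as lines. The DMSO 12 h points of COL4A1/COL4A2 (210 and 178 CPM) lie below all other libraries of that window, and the 5-FU 12 h points of COL6A3 (558 and 477 CPM) above all others.

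**Figure D4:**
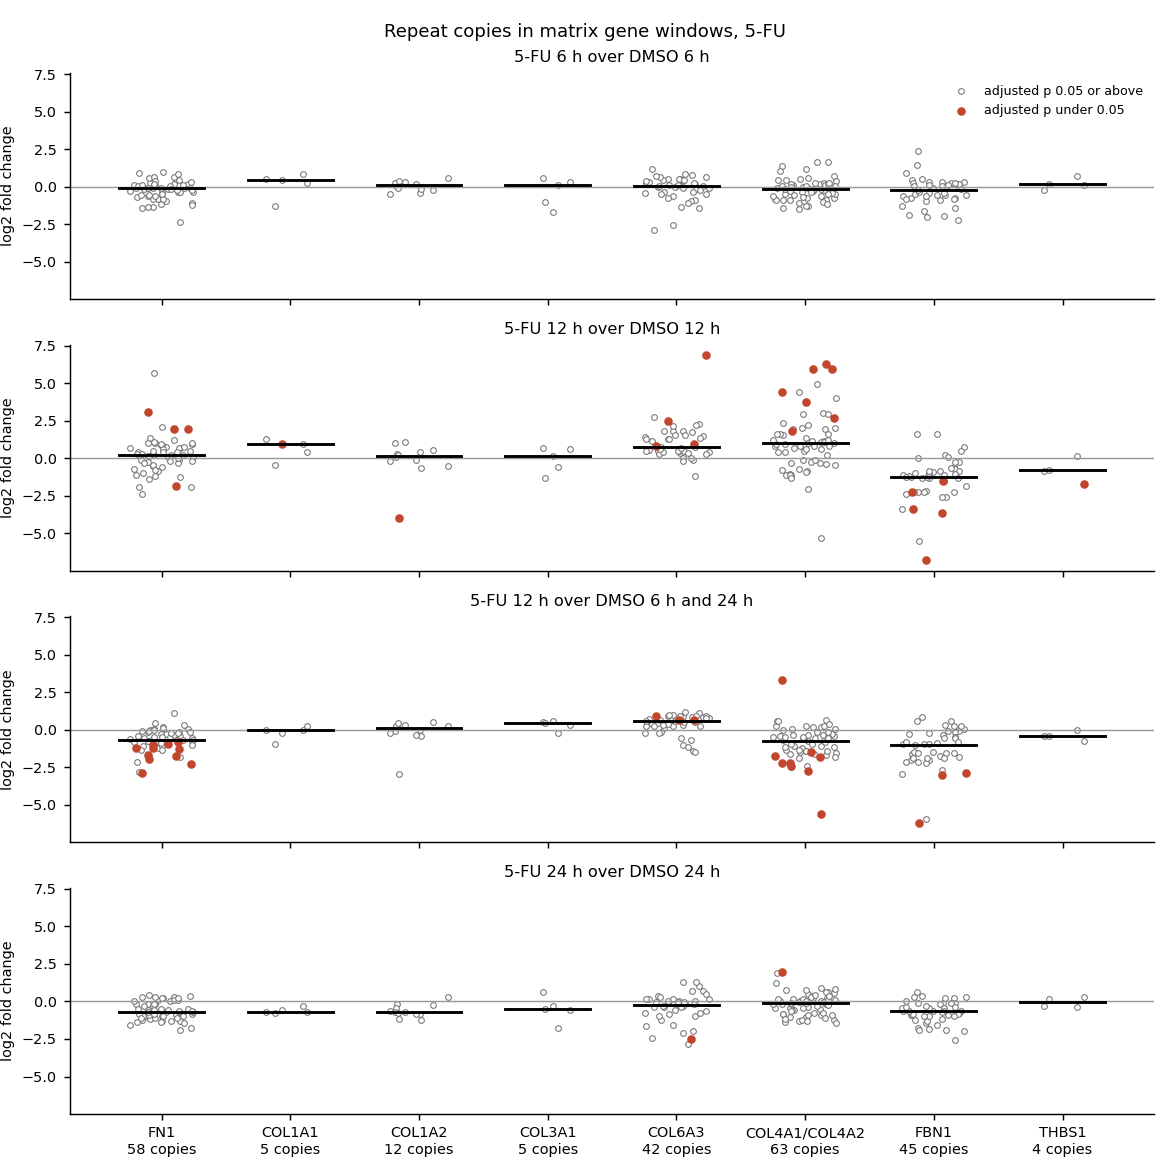
Log2 fold change of each tested copy (234 in all, by window) for 5-FU 6 h, 12 h against DMSO 12 h, 12 h against DMSO 6 h and 24 h, and 24 h. Filled points have an adjusted p under 0.05 and black lines are medians: the FN1 and COL4A1/COL4A2 medians at 12 h are above 0 against DMSO 12 h (0.23 and 1.01) and below 0 against the other DMSO libraries (-0.68 and -0.71).

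A single copy passed the test at both 12 h and 24 h of 5-FU. It is an AluY copy of 310 bases on the COL4A1 side of the COL4A1/COL4A2 window (chr13:110874839-110875148). Its counts were 37 and 31 in untreated cells, 16 and 35 under DMSO 6 h, 7 and 14 under DMSO 12 h and 58 and 52 under DMSO 24 h. Under 5-FU they were 55 and 70 after 6 h, 223 and 279 after 12 h, then 191 and 202 after 24 h. In CPM the 5-FU libraries had 12.6 and 14.7 (6 h), 65.7 and 80.0 (12 h), then 46.7 and 32.2 (24 h), against 2.20 to 11.1 CPM over all DMSO libraries. Each 5-FU library thus lay above each DMSO library of the table. The log2 fold changes were 1.41 ± 0.34 at 6 h (adjusted p = 0.157), 4.44 ± 0.37 after 12 h (adjusted p = 1.89e-07) and 1.99 ± 0.31 at 24 h (adjusted p = 0.000378). Against DMSO 6 h and 24 h the 12 h value was 3.35. Both calls held in each alternative in which the copy was tested (the filter of 10 counts in every library left it out), with log2 fold changes between 3.35 and 5.03 at 12 h and between 1.70 and 2.24 at 24 h.

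Within 25 kb on either side of the AluY copy, 4 other copies were tested. Their log2 fold changes were between 0.71 and 2.02 at 12 h against DMSO 12 h, but between -1.23 and 0.07 against DMSO 6 h and 24 h, and between -1.23 and -0.05 at 24 h. Of the 16 AluY copies in the windows 4 were tested, and the other 3, all in FN1, were not called against the DMSO group of the same time. Their log2 fold changes were between -0.26 and 0.61 at 6 h, between -1.38 and 5.69 at 12 h and between -1.54 and -0.55 at 24 h. The value of 5.69 (adjusted p = 0.0956) is that of a copy (chr2:216290860-216291170) with 0 and 0 counts under DMSO 12 h and 8 and 2 under 5-FU 12 h, and it depends on how the fit treats 0. Against DMSO 6 h and 24 h that copy was at -0.49 (adjusted p = 0.729), and another of the 3 (chr2:216238392-216238704) was called lower (-1.94, adjusted p = 0.0380). Under Nutlin the AluY copy of COL4A1/COL4A2 had 3.19 and 2.72 CPM in DMSO and 2.39 and 2.97 CPM with the drug, with overlapping groups. AluY is a young Alu subfamily with many near-identical copies, and how the authors assigned reads that match several copies is not given in the sources used here, so the position of this signal is uncertain.

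**Figure D5:**
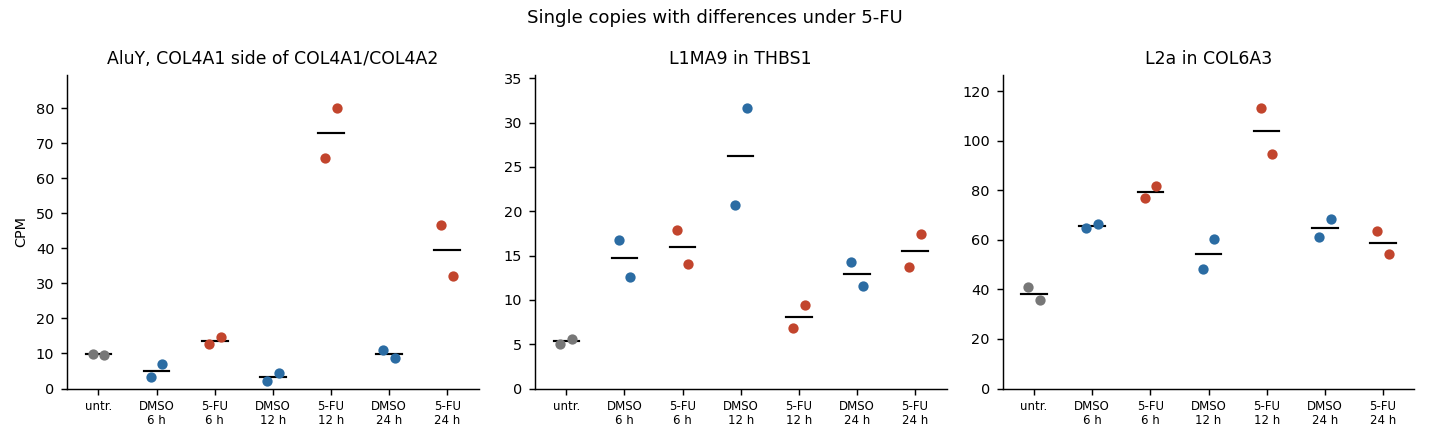
Level (CPM, vertical axis starting at 0) of 3 single copies in each library of the 5-FU table, with untreated in grey, DMSO in blue, 5-FU in red and group means as lines. The AluY copy reached 65.7 and 80.0 CPM under 5-FU 12 h, the L1MA9 copy of THBS1 was lowest among treated and DMSO libraries under 5-FU 12 h, and the L2a copy of COL6A3 was highest there.

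At 24 h of 5-FU 2 of 234 copies passed by edgeR's quasi-likelihood test, against 4.20% of all copies tested, 2.64% higher and 1.55% lower. Besides the AluY copy, an MLT1D copy of COL6A3 (chr2:238283726-238284204) had 0.734 and 0.638 CPM under 5-FU and 3.05 and 4.71 CPM under DMSO, with a log2 fold change of -2.47 ± 0.69 (adjusted p = 0.0439). It lost the call without any one of the 4 libraries compared (adjusted p between 0.0982 and 0.287). The windows as a whole were lower, with a median log2 fold change of -0.47 against 0.06 over all copies tested. FN1 copies summed to 554 and 513 CPM under DMSO and 432 and 425 CPM under 5-FU, COL1A2 copies to 133 and 119 CPM and 91.7 and 77.6 CPM, and FBN1 copies to 227 and 234 CPM and 176 and 183 CPM. Of the 58 tested FN1 copies 37 had both 5-FU libraries below both DMSO libraries, against 21.1% of all copies tested, but none passed. COL1A1 copies summed to 82.6 and 66.4 CPM under DMSO and 49.9 and 52.0 CPM under 5-FU, and COL6A3 copies to 349 and 360 CPM and 318 and 322 CPM. In all of these windows the summed levels of both 5-FU libraries lay below those of both DMSO libraries. In THBS1 (50.6 and 44.4 CPM under DMSO, 52.1 and 46.1 CPM under 5-FU) and COL3A1 the groups overlapped. In the COL4A1/COL4A2 window the sums were 415 and 410 CPM under DMSO and 423 and 418 CPM under 5-FU, a log2 ratio of 0.03 ± 0.02 (SD, n = 2 per group). This direction depended on the scaling. With RLE size factors the sums were 406 and 421 CPM under DMSO and 385 and 399 CPM under 5-FU. With library size alone they were 441 and 433 CPM under DMSO and 344 and 417 CPM under 5-FU.

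The change between 6 h and 24 h was tested directly. For the 24 h effect minus the 6 h effect, edgeR's quasi-likelihood test called 0 of 234 copies, against 0.380% of all copies tested, and DESeq2 also called 0. At an unadjusted p under 0.05 there were 13, or 5.56%, against 8.17% of all copies tested. The median difference of the log2 fold changes was -0.31 for the windows and -0.02 over all copies tested.

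The DMSO libraries were also compared with the 2 untreated samples. Over the 3 DMSO groups of the 5-FU table, 11 of 234 copies were higher than in untreated cells and 0 lower, against 2.63% of all copies called, 0.516% higher and 2.11% lower. Of the 11, 8 were in FN1, 2 in THBS1 and 1 in FBN1. FN1 copies summed to 230 and 205 CPM in untreated cells and to between 265 and 554 CPM in the 6 DMSO libraries, and THBS1 copies to 15.7 and 25.02 CPM and to between 44.4 and 67.4 CPM. No DMSO library overlapped the untreated ones in either window. The COL6A3 and FBN1 sums were also higher under DMSO without overlap, at log2 ratios of 0.54 and 0.69. COL3A1 went the other way without overlap, at -0.51. In COL1A1, COL1A2 and COL4A1/COL4A2 the libraries overlapped. An AluJr copy of FN1 (chr2:216244433-216244718) had 10.9 and 9.69 CPM untreated and 21.7 to 44.3 CPM under DMSO, with a log2 fold change of 1.51 ± 0.22 (edgeR quasi-likelihood test, adjusted p = 0.000592). The L1MA9 copy of THBS1 was at 1.67 ± 0.30 (adjusted p = 0.00331) and a MIR3 copy of FN1 (chr2:216286032-216286153) at 1.45 ± 0.31 (adjusted p = 0.0127). With either untreated library left out, 1 call remained. Untreated cells had their medium changed 12 h before extraction, so time since the medium change and DMSO cannot be told apart in this comparison.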

How the data were processed

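Total RNA libraries from IMR90 cells were sequenced by the authors, who deposited raw counts of reads per annotated repeat copy in 2 tables, on hg19 per the submitters' processing notes. Those notes name Trimmomatic 0.32, cutadapt 1.10, Bowtie2, edgeR and DESeq2. The counting program, the repeat annotation and the handling of reads that match several copies are not given in the sources used here. The tables carry no strand, and exon or intron placement was not analysed here.

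From the deposited counts, copies with too few counts were removed with filterByExpr, libraries were scaled by TMM, and each comparison was tested with edgeR 4.0.16 (quasi-likelihood F test, limma 3.58.1, R 4.3.3) with Benjamini-Hochberg adjustment over all copies tested and a threshold of 0.05. The standard error is the log2 fold change divided by the square root of F. DESeq2 1.42.0 was an alternative, as were other scalings, filters and sets of libraries. The scripts were tested on simulated data. Window sums were described with no test. Intervals of depth cover counting error only, and the number of libraries limits the precision.

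Named were the most abundant tested copy of each window, up to 10 copies with the smallest p per drug comparison if called at 0.05 with libraries that did not overlap, and up to 3 copies in the other comparisons. The windows, lists and tests were chosen with earlier results of these data known.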

Additional observations from a re-analysis of the deposited data

Results flagged for a closer look

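On the TMM scale, some effects of 5-FU went one way in every library at one time and the other way at another. The values here are differences of log2 ratios (later time minus earlier time). These differences were not tested, except that of 24 h minus 6 h for single copies, where 0 copies were called by edgeR's quasi-likelihood test.

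For window sums, 12 h minus 6 h was 0.34 in FN1 and -1.11 in THBS1. For 24 h minus 6 h it was -1.04 in COL1A1 and -0.46 in COL6A3. For 24 h minus 12 h it was -0.54 in FN1, -1.46 in COL1A1, -0.77 in COL1A2 and -0.85 in COL6A3. With other scalings some of these directions did not hold. By RLE size factors the sums of 5-FU and its DMSO overlapped in FN1 and COL1A2 at 12 h and in THBS1 at 6 h. With library size alone the COL1A2 sums at 12 h were 124 and 102 CPM under DMSO and 83.3 and 90.6 CPM under 5-FU. On that scale FN1 was also lower than DMSO 12 h, and COL6A3 at 12 h and THBS1 at 6 h overlapped.

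For single copies, 24 h minus 6 h was -1.01 in the L1MC4 copy of COL1A1, and 24 h minus 12 h was -1.53. The 24 h minus 12 h difference was -2.39 in the L1PB2 copy of COL4A1/COL4A2, -2.41 in the AluSz copy of FN1 and -0.82 in the MIR3 copy of FN1. The MIRc copy of FN1 differed by 3.66 between 12 h and 6 h. Each comparison with 12 h rests on the DMSO 12 h libraries, the shallowest of the table. Against DMSO 6 h and 24 h the 12 h log2 ratio of the COL1A2 sum was 0.045 with overlapping groups, where it was 0.196 against DMSO 12 h. With the same change of controls the FN1 sum went from 0.22 to -0.52, and the COL1A1 sum from 0.91 to -0.14 with overlapping groups. The COL6A3 and THBS1 sums kept their direction, at 0.55 and -0.43. Single copies went from 1.79 to 0.07 (L1PB2), from 1.92 to 0.07 (AluSz), from 3.08 to -0.12 (MIRc) and from 0.94 to -0.21 (L1MC4).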

How the results depend on the processing

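For Nutlin, 14 copies were called, 23 with library size alone (11 higher and 12 lower), and 11 to 14 with 1 library left out. Higher calls numbered 8 to 11 over the settings run, and lower calls 0 to 12, with 0 where at least 10 counts in every library were asked. At 12 h the 23 calls became 7 at an adjusted p of 0.01, 13 with at least 10 counts in every library, 7 with only the libraries compared, 8 with no filter, 14 with DESeq2 (5 higher and 9 lower), and 5 to 9 with 1 library left out. RLE size factors gave 8 higher and 11 lower. At 24 h the 2 calls became 1 at 0.01, with the replicate block, with only the libraries compared and with no filter, 4 by RLE, 9 by library size, 6 by DESeq2, and 1 to 2 with 1 library left out. For DMSO against untreated the 11 calls became 2 at 0.01 and with no filter, 17 with RLE size factors, 19 with at least 10 counts and with only the libraries compared, 23 with DESeq2, and 1 to 10 with 1 library left out. Without structural RNA 17 copies were called for Nutlin, 25 at 12 h, 2 at 24 h and 15 for DMSO against untreated. These were 18.7%, 10.7%, 0.855% and 6.41% of the tested copies of the windows, against 5.28%, 11.8%, 4.45% and 2.36% of all copies. The share of all copies called moved too. It ranged from 0.166% to 11.7% for Nutlin and from 0.238% to 34.8% at 12 h. At 24 h it ranged from 0.125% to 16.2%, and for DMSO against untreated from 0.0837% to 20.1%. With at least 10 counts in every library only 29 (Nutlin) and 47 (5-FU) copies of the windows were tested. There the 11 Nutlin calls were 37.9% of them (11.7% of all copies). The 13 calls at 12 h were 27.7% (34.8%), and the 19 for DMSO against untreated 40.4% (20.1%). The tested copies of the windows had a higher share than all copies in all 14 alternatives for Nutlin, and in 16 of 17 for DMSO against untreated (0.427% and 0.440% without untreated replicate 1). They had a lower share in all alternatives at 12 h and 24 h but the one with no filter, with for example 4.55% of all copies and 3.85% of those in the windows called by library size at 24 h.

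Log2 fold changes changed sign as follows. Under Nutlin, scaling by library size alone put HAL1 (FN1) at -0.15 and AmnSINE1 at -0.025. At 6 h HAL1 was at -0.055 by RLE, -0.073 by library size and -0.070 by DESeq2, and at 12 h at -0.00346, -0.29 and -0.010. At 12 h L1MD2 was at -0.13, -0.42 and -0.14, and AmnSINE1 at -0.14 by library size. Against DMSO 6 h and 24 h, HAL1 was at -0.065, L1MC4 at -0.21, L3 (FBN1) at 0.23 and MIRc (FN1) at -0.12. At 24 h library size put AmnSINE1 at -0.12, L3 at -0.00995 and MIR (THBS1) at -0.059. Values that crossed 0 with 1 library left out ranged under Nutlin from -0.18 to 0.25 for HAL1, from -0.73 to 0.20 for L1MC4 and from -0.11 to 0.93 for AluSx (COL1A2). At 6 h they ranged from -0.0451 to 0.25 for HAL1, from -0.18 to 0.47 for AluSx and from -0.27 to 0.55 for MIR, and at 12 h from -0.33 to 0.58 for L1MD2. At 24 h they ranged from -0.64 to 0.11 for L1MD2, from -0.43 to 0.58 for AmnSINE1, from -0.086 to 0.53 for L3 and from -0.032 to 0.38 for MIR. The cause was not tested.

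The replicate numbers were not taken to pair the samples. Same-numbered libraries had deviations correlated at -0.0081 (Nutlin), -0.0028 (6 h), -0.0163 (12 h) and 0.1409 (24 h). The value at 24 h was the highest of all pairs of groups. Such a check cannot exclude pairing, because counting noise at low counts can hide a shared deviation. With the replicate block, Nutlin gave 11 higher and 8 lower calls and 12 h gave 13 and 8. A filter by the 2 groups of 2, chosen after seeing the data, gave 11 higher and 4 lower under Nutlin. Copies with few counts limit what could be called.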
